A study of Mus musculus and Homo sapiens with 9 samples.

Results

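Glycolysis, glucose transport and hypoxia genes were followed in RNA sequencing data from a leukemia cell line and from mouse T cells, in both of which IRF2BP2, a transcriptional co-regulator that binds IRF2, had been reduced or deleted. The 36 genes were chosen by symbol as the members of these pathways, and rows for all 36 were found in each count table, among 56105 annotated genes in the human table and 42462 in the mouse table. Of the mouse rows, 35 matched by the same symbol in mouse case and GPI was found under its mouse symbol Gpi1. All 36 passed the filter on low counts in both tables, in which 15819 and 15350 genes were tested.

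The human libraries were made from J.gamma1, a line derived from the Jurkat T-cell acute lymphoblastic leukemia (T-ALL) line, with a control hairpin (shNC, 2 libraries) or with a short hairpin RNA against IRF2BP2 (shIRF2BP2, 2 libraries). All 4 came from this single line, and the labels do not say which hairpin sequence was used. The mouse libraries were made from splenic CD3+ T cells of Wild type (3 libraries) and Irf2bp2 KO (2 libraries) animals. In the methods of the study the controls carry the floxed Irf2bp2fl/fl alleles without Cre, and the knockouts carry these alleles with one copy of Vav-iCre, a Cre that acts throughout the hematopoietic lineage and not in T cells alone. The age of the sequenced animals is not given in the labels.

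Glycolysis converts glucose to pyruvate in the cytosol. Glucose enters through SLC2A transporters, is phosphorylated by hexokinases, and is committed to the pathway by phosphofructokinase, whose activity depends on fructose 2,6-bisphosphate made and removed by PFKFB enzymes. Lactate dehydrogenase converts pyruvate to lactate, which leaves through SLC16A carriers, and pyruvate dehydrogenase kinases hold pyruvate back from the mitochondria. HIF1A is the oxygen-regulated subunit of the hypoxia-inducible factor. In the presence of oxygen the prolyl hydroxylases EGLN1 and EGLN3 mark it for VHL, which directs its destruction, and when oxygen is scarce it escapes this and raises many glycolytic genes along with targets such as VEGFA and BNIP3. Activated and leukemic T cells are known for high glycolytic rates.

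Library totals ranged from 26648204 to 31120236 counts in J.gamma1 and from 16668577 to 37177523 in the mouse, where Wild type 3 was the shallowest. IRF2BP2 stood at 205 and 199 CPM (counts scaled to a common library size, with TMM, the trimmed mean of M-values) in shNC 1 and 2, against 79.0 and 93.8 in shIRF2BP2 1 and 2, a log2 fold change of -1.22 (adjusted p = 0.0023, edgeR quasi-likelihood test with Benjamini-Hochberg adjustment). Irf2bp2 had 4145, 4594 and 1915 counts in the Wild type libraries and 0 in both KO libraries. All 13 human and 14 mouse T cell markers were detected. Summed T cell markers stood at 1803 to 2012 CPM with shNC, 1712 to 1836 with shIRF2BP2, 6076 to 6911 in Wild type and 4586 to 4910 in KO. In J.gamma1 myeloid markers summed to at most 0.543 CPM (CSF1R, LYZ and MPO at 0), and B cell markers to 45.9 to 60.5 with shNC and 11.3 to 14.2 with shIRF2BP2 (MS4A1 at 0). Of the 13 T cell markers 2 were called lower and 3 higher after knockdown, beside 5.01% and 5.46% of all genes tested. Only 1 of the 4 B cell markers passed the filter on low counts. It was called lower, which is a result for 1 gene and not for B cells. Nothing in the labels says whether libraries of a group came from separate cultures or animals, so p-values measure the spread between these libraries only.

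Per kilobase of exon, GAPDH was the most abundant of the 36 in J.gamma1, at a shNC mean of 1846 CPM per kb, followed by ENO1 (427), LDHB (381), ALDOA (266), PGAM1 (236) and LDHA (236). Apart from GAPDH, which was above all others in every library, neighbors in this order overlapped across libraries. In mouse T cells Ldha led, at a Wild type mean of 147 CPM per kb, followed by Aldoa (125), Pkm (106), Ddit4 (106) and Eno1 (102), with neighbors overlapping. This order rests on the Gapdh row alone (15.6), and with the pseudogene rows described below Gapdh would come first, at 163 against 147 for Ldha counted the same way, with overlapping libraries. The lowest were EGLN3 in J.gamma1, at 0.668, and Vegfa in the mouse, at 0.211. The summed CPM of 17 glycolytic enzymes and lactate dehydrogenases made up 1.18% and 1.84% of all counts in shNC 1 and 2, and 1.06% and 1.58% in shIRF2BP2 1 and 2. The same 17 genes took 0.283%, 0.345% and 0.292% in the Wild type libraries and 0.273% and 0.265% in KO.

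After knockdown of IRF2BP2 in J.gamma1, 2 of the 36 genes were lower, LDHB and PFKFB2, and 1 was higher, HIF1A, where a call needed an adjusted p below 0.05 with a log2 change of 0.5 or more either way. Over all genes tested the same rule called 5.01% lower and 5.46% higher. The other 33 did not pass, and the median log2 fold change was 0.04 over the 36 members and 0.01 over all genes. On average 19 of the 36 were higher and 17 lower, while 7815 of all 15819 genes tested were lower. The counts depended on single libraries: with each library left out in turn, 1 to 3 members were lower and 1 to 7 were higher. Without shNC replicate 2, 7 were higher, namely SLC2A1, SLC2A3, PFKFB4, ALDOC, SLC16A3, HIF1A and DDIT4. Without shIRF2BP2 replicate 1, 2 were higher (HIF1A and SLC16A3) and only PFKFB2 was lower, and 3 were lower without shNC replicate 1 (LDHB, PFKFB2 and ENO2).

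HIF1A (ENSG00000100644, chr14:61695513-61748259 of hg38, plus strand) stood at 138 and 115 CPM in shNC 1 and 2, and at 236 and 216 in shIRF2BP2 1 and 2. The groups were apart, with every knockdown library above every control library. The log2 fold change was 0.84 ± 0.14 (standard error, SE), with an adjusted p of 0.0099, and it ranged from 0.71 to 0.97 when single libraries were left out. Rows antisense to HIF1A held 16 and 7 counts in all 4 libraries together. The other oxygen-sensing genes did not pass. VHL, the substrate receptor of the ligase, had 134 and 148 CPM against 157 and 157. EGLN1, the main hydroxylase, had 48.8 and 96.9 against 48.5 and 107, so that the 2 libraries of a group were farther apart than the groups. EGLN3, an inducible hydroxylase, was low, at 3.51 and 6.32 against 0.309 and 3.12 CPM, with a log2 fold change of -1.52 ± 0.78 (adjusted p = 0.25), and of the fits that left out 1 library only that without shIRF2BP2 replicate 2 called it lower (-3.98, adjusted p = 6.3e-04), while without shIRF2BP2 replicate 1 it was -0.68. With the replicate number as a block in the same test, EGLN3 was called lower (-1.93, adjusted p = 0.014), but 2 numbers do not establish a pairing. SPTSSA overlaps EGLN3 on the same strand and held 826% as many counts. HIF1A is controlled mainly at the protein level, which these data do not measure.

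LDHB (ENSG00000111716, chr12:21635342-21757857, minus strand), the lactate dehydrogenase subunit that favors the conversion of lactate to pyruvate, stood at 1132 and 1140 CPM in shNC and at 771 and 729 in shIRF2BP2. Replicates lay close together and the groups did not overlap. Its log2 fold change was -0.60 ± 0.13 (adjusted p = 0.027), and -0.67 to -0.56 when single libraries were left out. The call was lost without shIRF2BP2 replicate 1 and without shIRF2BP2 replicate 2. LDHA, the subunit that favors lactate, had 960 and 1878 CPM against 898 and 1699, with no call (log2 fold change -0.13, adjusted p = 0.85). The share of LDHA in the LDHA and LDHB sum, per length, was 29.6% and 44.9% in shNC 1 and 2 and 36.6% and 53.6% in shIRF2BP2 1 and 2. The share was therefore higher with knockdown within each library number, while the groups overlapped.

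PFKFB2 (ENSG00000123836, chr1:207034366-207081024, plus strand), a kinase and phosphatase that sets the level of fructose 2,6-bisphosphate, stood at 24.9 and 17.95 CPM in shNC and 10.3 and 10.9 in shIRF2BP2. The knockdown libraries were both below the controls, with a log2 fold change of -1.02 ± 0.20 (adjusted p = 0.020) and a range of -1.24 to -0.77 when single libraries were left out. YOD1 overlaps PFKFB2 on the opposite strand and held 598% as many counts as PFKFB2 over the 4 libraries, so without strand the reads of the shared stretch cannot be told apart. YOD1 stood at 94.6 and 71.5 CPM in shNC and 111 and 102 in shIRF2BP2, a log2 fold change of 0.36 (adjusted p = 0.18), opposite in sign to PFKFB2. Its relatives behaved differently. PFKFB3 had 71.2 and 126 CPM against 82.4 and 149, and PFKFB4 had 8.46 and 48.8 against 8.86 and 79.4, neither with a call.

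**Figure D1:**
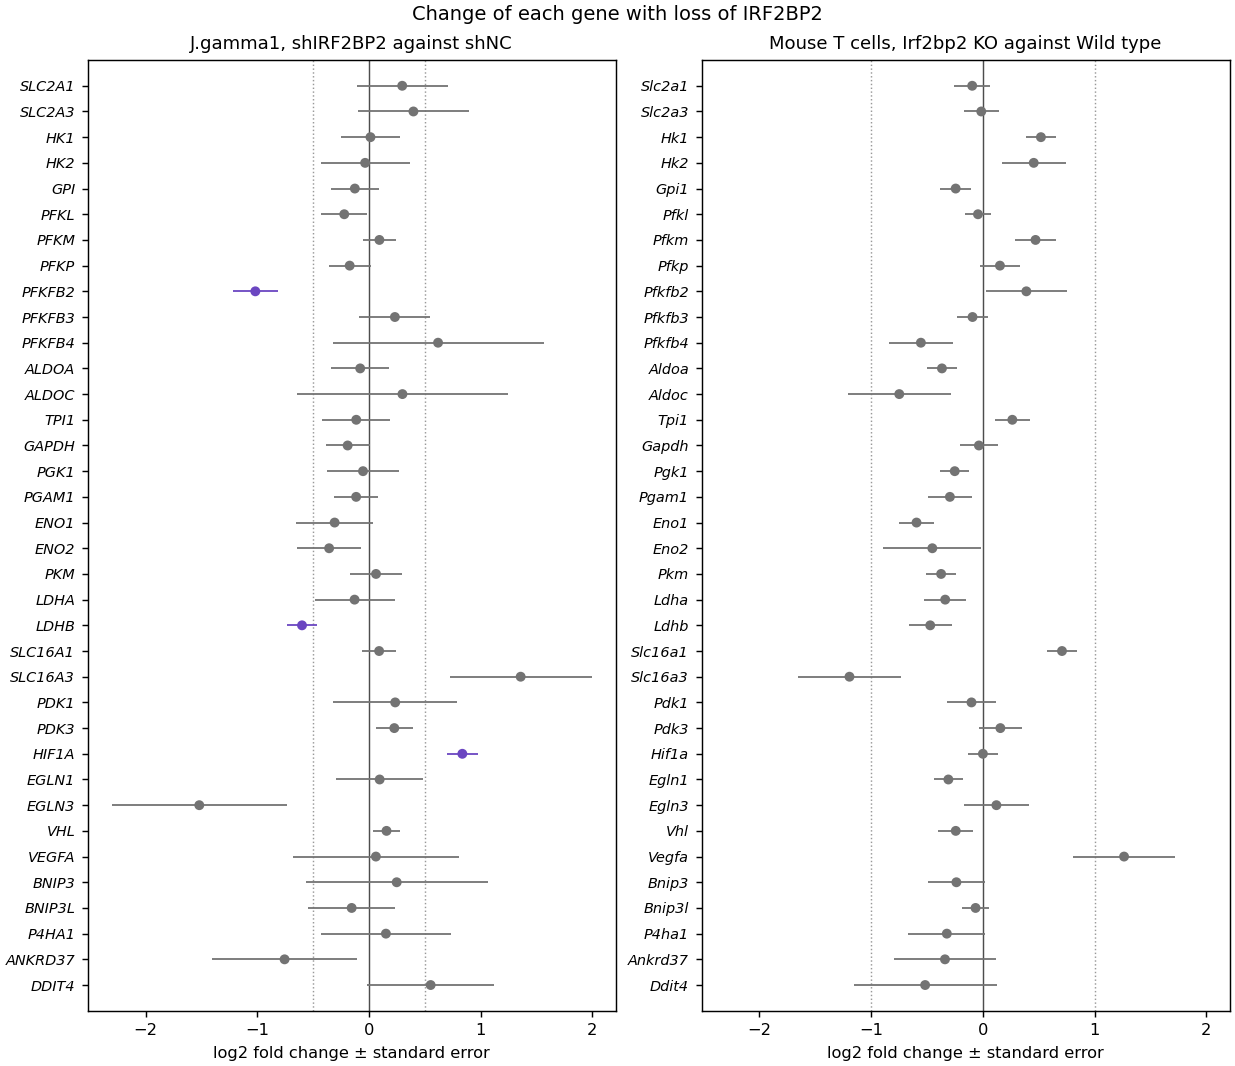
Log2 fold change of each gene (x axis, dots, with bars of 1 standard error) in J.gamma1 with shIRF2BP2 against shNC (left) and in mouse T cells with Irf2bp2 KO against Wild type (right), with dotted lines at the fold threshold of each table. Purple marks the called genes, PFKFB2, LDHB and HIF1A in J.gamma1 and none in the mouse, and the bars are widest for genes such as PFKFB4 and ALDOC, whose replicates lay far apart.

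The main separation of these genes in J.gamma1 was between the libraries numbered 1 and those numbered 2 in the labels, not between the hairpins. For 29 of the 36 the difference between numbers was larger than the difference between groups, a count that was not made over all genes tested. Both libraries numbered 2 were above both numbered 1 for 28 of the 36 members, against 14.5% of all genes tested, and below for 1 member, SLC16A1, against 12.2%. The median log2 ratio of library 2 to library 1 was 0.82 in shNC and 0.85 in shIRF2BP2 over the 36, and close to 0 over all genes tested. A gene with both libraries numbered 2 above or below both numbered 1 cannot also have its groups apart. The counts for the groups are therefore bounded by those for the numbers and are not separate evidence. Both shIRF2BP2 libraries were below both shNC libraries for 3 members against 28.7% of all genes, and above for 4 members against 29.6%. What the numbers stand for, such as a day or a culture, is not stated in the labels, and the part of culture density, medium or oxygen in this difference was not tested.

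**Figure D2:**
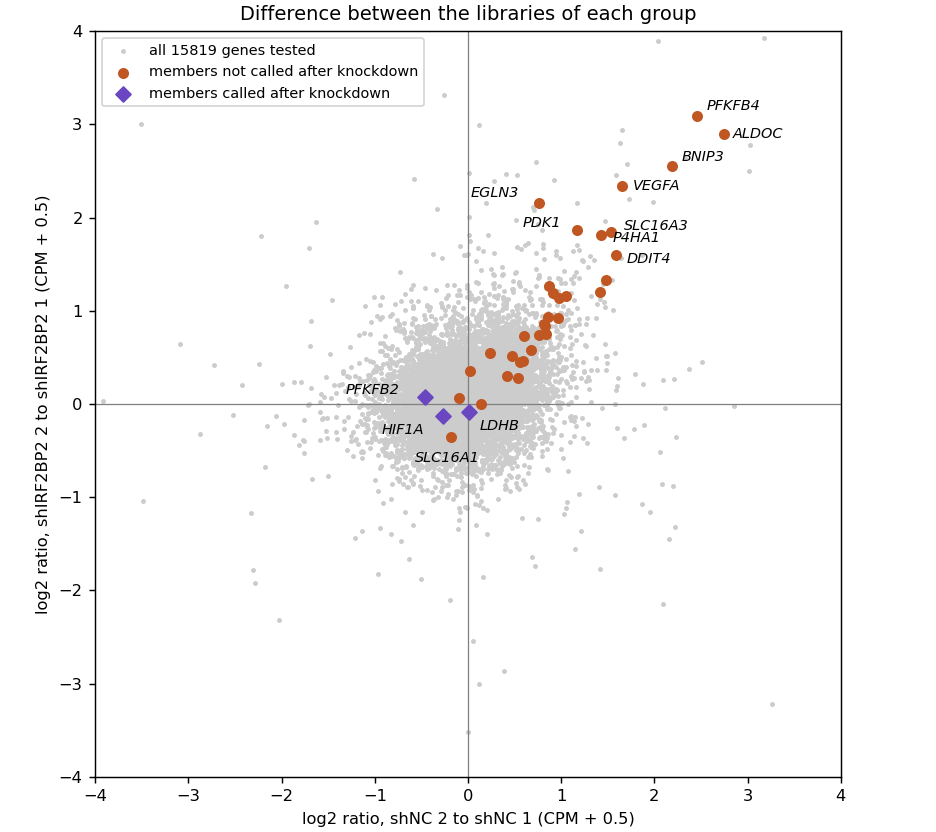
Log2 ratio of the library numbered 2 to the library numbered 1, in shNC (x axis) and in shIRF2BP2 (y axis), on CPM plus 0.5. Grey dots are the 15819 genes tested, of which 5 lie outside the axes, and the larger symbols are the 36 members. Most members lie in the upper right, up to PFKFB4 and ALDOC, while the called genes HIF1A, LDHB and PFKFB2 (purple) lie left of or close to 0 on the x axis and close to 0 on the y axis.

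Among these, 11 members were at least 2 times higher in library 2 in both groups, against 1.11% of all genes, and none was at least 2 times higher in library 1, against 0.443%. They were the transporters SLC2A1, SLC2A3 and SLC16A3, the enzymes PFKFB4, ALDOC and PDK1, and the hypoxia targets VEGFA, BNIP3, P4HA1, ANKRD37 and DDIT4. Being picked on these values, the group is described without a test. Just outside it lay EGLN1, at 1.98 times in shNC and 2.22 times in shIRF2BP2, and just inside lay SLC2A1, at 2.09 and 2.25 times.

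The promoters of 4 of the 11 are shown because the hypoxia-inducible factor is known to bind the core words ACGTG and GCGTG. Each stretch runs from 250 bases before to 50 bases after the annotated start in hg38, 5′ to 3′ on the strand of the gene, with these words and their reverse complements in capitals.
BNIP3, chr10:131981874-131982173, minus strand: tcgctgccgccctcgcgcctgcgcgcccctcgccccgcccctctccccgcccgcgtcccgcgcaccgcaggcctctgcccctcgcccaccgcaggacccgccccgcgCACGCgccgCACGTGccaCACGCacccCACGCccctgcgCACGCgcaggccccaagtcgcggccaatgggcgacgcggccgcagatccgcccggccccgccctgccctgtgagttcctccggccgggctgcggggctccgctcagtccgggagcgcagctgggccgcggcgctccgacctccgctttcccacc
ALDOC, chr17:28576846-28577145, minus strand: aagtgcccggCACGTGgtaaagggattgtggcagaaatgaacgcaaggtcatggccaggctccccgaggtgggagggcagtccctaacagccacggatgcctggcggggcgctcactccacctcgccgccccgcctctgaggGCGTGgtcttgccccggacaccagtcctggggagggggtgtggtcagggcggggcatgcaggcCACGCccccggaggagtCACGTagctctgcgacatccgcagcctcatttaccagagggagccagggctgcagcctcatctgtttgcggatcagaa
ANKRD37, chr4:185396591-185396890, plus strand: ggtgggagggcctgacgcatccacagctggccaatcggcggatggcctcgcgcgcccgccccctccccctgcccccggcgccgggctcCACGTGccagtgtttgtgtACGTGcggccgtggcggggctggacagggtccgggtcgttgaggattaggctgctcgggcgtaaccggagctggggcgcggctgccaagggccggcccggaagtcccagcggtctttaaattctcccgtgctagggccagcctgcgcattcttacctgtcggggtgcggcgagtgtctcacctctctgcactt
PFKFB4, chr3:48556754-48557053, minus strand: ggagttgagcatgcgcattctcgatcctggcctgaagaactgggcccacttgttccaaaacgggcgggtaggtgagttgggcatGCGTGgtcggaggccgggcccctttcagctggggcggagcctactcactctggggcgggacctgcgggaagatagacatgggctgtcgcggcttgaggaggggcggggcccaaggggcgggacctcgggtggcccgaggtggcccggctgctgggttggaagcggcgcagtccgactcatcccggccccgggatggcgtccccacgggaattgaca
ACGTG or GCGTG, on either strand, was present in the promoters of 32 of the 36 members and of all 11 of the group, against 56.45% of 20046 human promoters of this length. ACGTG alone was in 8 of the 11 and in 21 of all 36 members, against 23.3% of promoters. GCGTG was in 6 of the 11 and in 22 of the 36, against 44.95%, so these words were frequent in the members as a whole. The promoters compared with were those of all protein-coding genes, expressed here or not, and base composition was not taken into account. Whether the hypoxia-inducible factor acts at these words was not tested. The longer word CACGTG, which contains ACGTG and is also bound by other factors, was in 7 of the 36, against 8.76%. With CACGTG, which reads the same on both strands, counted on each, the BNIP3 promoter held 6 words, ALDOC 5, ANKRD37 3 and PFKFB4 1. The called genes LDHB and HIF1A held 1 each, and PFKFB2 none. Of the 34 members matched in the mouse promoter table of RefSeq (GRCm38.p6), 30 held either word, against 46.7% of mouse genes.

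Among the hypoxia targets, BNIP3, a mitophagy receptor, stood at 56.5 and 54.5 CPM in the libraries numbered 1 (shNC and shIRF2BP2) and at 260 and 322 in those numbered 2. The related receptor BNIP3L had 156 and 123 CPM in the libraries numbered 1 and 293 and 281 in those numbered 2. VEGFA, the angiogenic growth factor, had 5.37 and 3.71 CPM against 18.02 and 20.8. In each of these the libraries of a number were closer to each other across hairpins than to those of the other number. P4HA1, a collagen prolyl hydroxylase subunit, followed with 45.7 and 41.6 CPM against 124 and 147. DDIT4, an inhibitor of mTORC1 induced by stress, had 44.1 and 64.5 CPM against 133 and 196, and ANKRD37 had 1.82 and 1.10 against 5.96 and 3.53. DDIT4 was higher with shIRF2BP2 within each number and ANKRD37 lower. Neither passed the test, which counts the spread between numbers as error (log2 fold changes 0.55 and -0.76, adjusted p = 0.57 and 0.49). With the replicate number as a block in the same test, DDIT4 was called higher (0.55, adjusted p = 0.0045), but 2 numbers do not establish a pairing. UFSP2, on the opposite strand, overlaps ANKRD37 and held 1163% as many counts.

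Of the glucose transporters, SLC2A1 (GLUT1) had 63.4 CPM in shNC 1, 74.2 in shIRF2BP2 1, 132 in shNC 2 and 167 in shIRF2BP2 2. SLC2A3 (GLUT3) had 8.88, 13.3, 24.6 and 31.0 CPM in the same order. Both were higher with shIRF2BP2 within each number, and the groups overlapped (log2 fold changes 0.30 and 0.40, adjusted p = 0.68 and 0.65). SLC16A3 (MCT4), a lactate exporter, had 4.75 CPM in shNC 1, 10.7 in shIRF2BP2 1, 14.8 in shNC 2 and 39.7 in shIRF2BP2 2, with the largest positive log2 fold change of the 36, 1.36 ± 0.64 (adjusted p = 0.21). It ranged from 0.12 without shIRF2BP2 replicate 2 to 2.40 without shNC replicate 2. With the replicate number as a block in the same test, SLC16A3 was called higher (1.31, adjusted p = 3.7e-04), but 2 numbers do not establish a pairing. CSNK1D overlaps SLC16A3 on the opposite strand and held 886% as many counts. The broadly expressed lactate carrier SLC16A1 (MCT1) ran the other way, at 175 and 197 CPM in the libraries numbered 1 and 154 and 154 in those numbered 2.

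At the entry of the pathway, HK1 had 87.6 and 133 CPM in shNC 1 and 2 and 83.6 and 140 in shIRF2BP2 1 and 2, and HK2, the inducible hexokinase, had 83.5 and 154 against 67.8 and 164. GPI, the isomerase of the next step, had 329 and 487 against 316 and 432. All 3 overlapped between groups. Of the phosphofructokinase subunits, PFKL had 91.1 and 127 CPM against 77.1 and 110, and PFKP had 263 and 309 against 207 and 301. PFKM hardly varied, at 21.1 and 19.8 against 21.3 and 22.4 CPM. It is overlapped on the opposite strand by SENP1, which held 470% as many counts and also varied little, from 91.3 to 105 CPM.

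From aldolase to pyruvate kinase, no gene passed the test and 7 of 9 log2 fold changes were negative, with a median of -0.11. ALDOA, the main aldolase, had 785 and 1254 CPM in shNC 1 and 2 and 773 and 1158 in shIRF2BP2 1 and 2, while ALDOC had 11.8 and 82.0 against 13.3 and 103. The ratio of library 2 to library 1 was thus 1.60 and 1.498 for ALDOA and 6.94 and 7.69 for ALDOC in the 2 groups, and the share of ALDOC in the sum of both, per length, went from 2.16% and 2.47% in the libraries numbered 1 to 8.75% and 11.5% in those numbered 2. ENO1 had 1583 and 2873 CPM against 1235 and 2366, and ENO2, its neuronal isozyme, 105 and 179 against 83.3 and 139. Unlike the aldolases, the enolases kept their proportion, with ENO2 at 6.69% to 7.59% in the 4 libraries. PGK1 had 815 and 1446 CPM against 782 and 1397, TPI1 418 and 745 against 401 and 674, and PKM 957 and 1444 against 1054 and 1455. PGAM1 had 490 and 709 CPM against 500 and 607, and GAPDH, often used as a reference gene, 3781 and 5066 against 3477 and 4274. GAPDH had one of the smaller ratios between numbers, 1.34 in shNC and 1.23 in shIRF2BP2.

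PDK1, a pyruvate dehydrogenase kinase and hypoxia target, had 38.4 and 31.6 CPM in the libraries numbered 1 and 87.0 and 116 in those numbered 2. PDK3 had 21.1 and 21.8 CPM against 21.4 and 27.95. Only PDK1 followed the numbers, and its share of the pair, per length, was 63.0% to 68.1% in the libraries numbered 1 and 82.7% to 83.0% in those numbered 2.

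**Figure D3:**
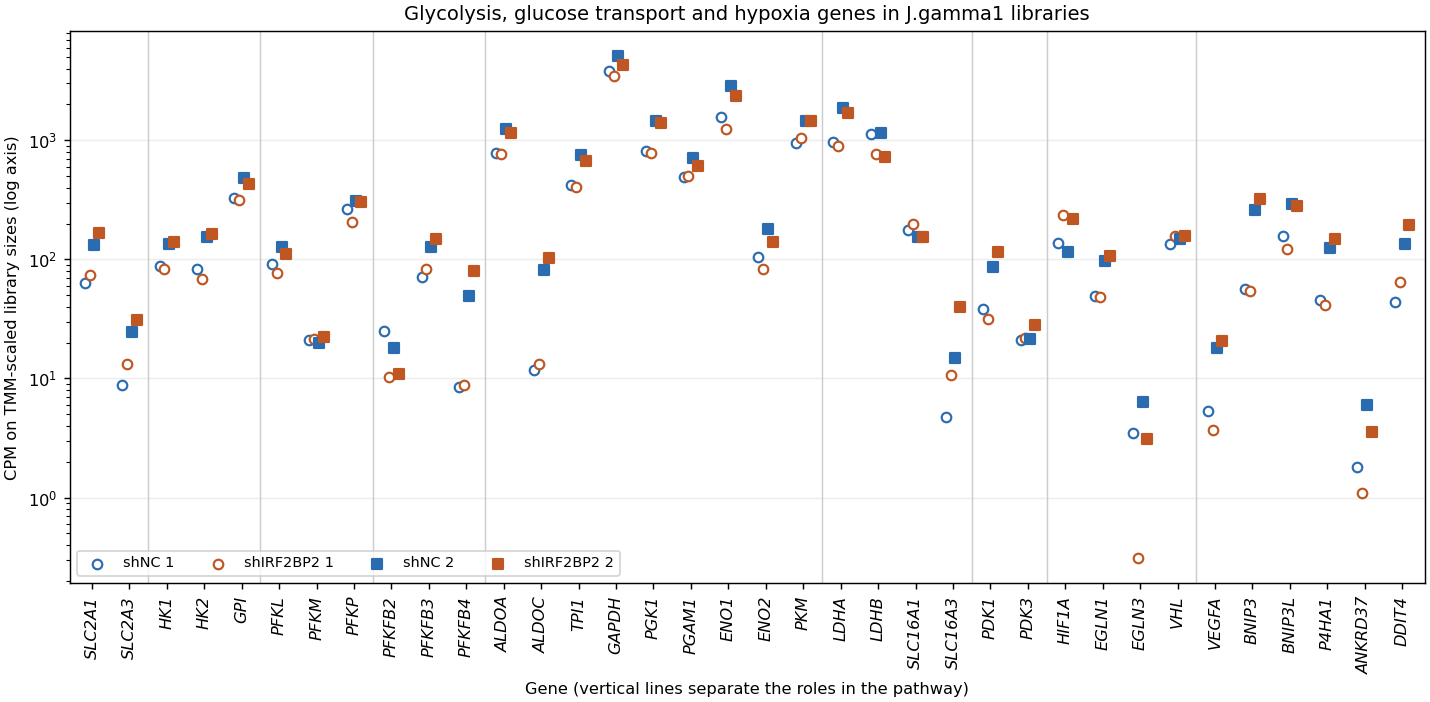
CPM of each of the 36 genes (x axis, ordered by role) in the 4 J.gamma1 libraries, on a logarithmic y axis, with open circles for the libraries numbered 1, filled squares for those numbered 2, blue for shNC and orange for shIRF2BP2. The filled squares lie above the open circles for 28 genes, and the orange symbols lie below both blue ones for 3 genes, among them LDHB and PFKFB2, and above both for 4, among them HIF1A.

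PFKFB2 was also examined for a 3′ UTR word, because earlier results on these data had found genes with GGTCTA and longer forms of it in the 3′ UTR to be lower after knockdown. Of 12704 genes tested with a 3′ UTR in the annotation, 15.9% held GGTCTA, of which 14.3% were called lower, against 4.35% of the genes without it. GGTCTAA was held by 5.04%, of which 18.8% were called lower. Of the members, 7 held GGTCTA (GPI, PFKFB2, PFKFB3, PGK1, PDK1, EGLN1 and EGLN3) and 2 held GGTCTAA, PFKFB2 and PFKFB3, shown here 5′ to 3′ on the strand of the gene with the word in capitals.
PFKFB2: ttctgcagtgGGTCTAAatggatctg
PFKFB3: cagaagccttGGTCTAAcacgggact
Of the 7, only PFKFB2 was called lower. LDHB did not hold the word. As the word was found in these same data, the shares above give no new support for it, and the length of the 3′ UTR was not taken into account. Whether the word has a part in the level of PFKFB2 was not tested.

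Of 110 further genes in 7 lists of the same pathways, 86 were tested in J.gamma1, of which 3 were lower and 4 higher, against 5.01% and 5.46% of all genes tested. Of the other glycolytic and fermentation enzymes, 1 of 12 was lower, PGM2, a phosphopentomutase and phosphoglucomutase, with 112 and 98.8 CPM in shNC and 75.9 and 70.2 in shIRF2BP2 (log2 fold change -0.53). Of the pentose phosphate genes 1 of 8 was lower, RPE, the ribulose phosphate epimerase, with 63.0 and 56.1 CPM against 31.7 and 34.3 (-0.85). Groups did not overlap for either. No call was made among 8 other glucose and lactate transporters, 11 genes of pyruvate entry to mitochondria and 11 subunits and regulators of the hypoxia-inducible factor.

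Of 29 other hypoxia-responsive genes tested, 1 was lower and 3 were higher after knockdown, beside the same 5.01% and 5.46% of all genes. NDRG1, a stress-induced growth regulator, had 52.2 and 78.5 CPM in shNC and 19.3 and 34.4 in shIRF2BP2 (log2 fold change -1.29, adjusted p = 0.029). RORA, a nuclear receptor, had 53.6 and 41.9 CPM against 193 and 207 (2.07, adjusted p = 8.0e-04). PPP1R3B, a glycogen-targeting phosphatase subunit, had 61.3 and 70.0 against 111 and 132 (0.88), and PLOD1, a lysyl hydroxylase, 29.1 and 39.1 against 48.5 and 61.4 (0.69). Of 7 glucose-sensing factors and targets, the arrestin ARRDC3 was higher, at 8.998 and 8.22 CPM against 15.3 and 23.2 (1.16). TXNIP, a glucose-induced inhibitor of glucose uptake, had 0 and 2 counts in shNC and 0 in both shIRF2BP2 libraries, and was not tested. A floor of 3 counts corresponded to 0.0967 to 0.116 CPM in these libraries. In the mouse T cells Txnip stood at 1236, 784 and 679 CPM in Wild type and 664 and 801 in KO.

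The separation by number extended to this list. At least 2 times more was found in library 2 in both groups for 6 of the 29, against 1.11% of all genes tested. Among them was ADM, the vasodilator peptide adrenomedullin, at 0.772 and 0.240 CPM in the libraries numbered 1 and 13.4 and 19.9 in those numbered 2. BHLHE40, a transcriptional repressor induced by hypoxia, had 4.98 and 4.91 CPM against 49.0 and 81.9. CA9, a carbonic anhydrase widely used as a hypoxia marker, had 0 counts in both libraries numbered 1 and 48 and 205 counts in shNC 2 and shIRF2BP2 2. The others were AK4, ANGPTL4 and STC2. Each of the other 6 lists, with 7 to 12 genes tested, held 0 such genes. At a share of 1.11% over all genes, lists of this size cannot be told apart from other genes by this.

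In mouse T cells lacking Irf2bp2, none of the 36 genes was called lower or higher by edgeR where a call needed an adjusted p below 0.05 with a log2 change of 1 or more either way, and DESeq2 also called 0. The same rule called 0.111% of all genes lower and 2.47% higher. At an unadjusted p under 0.05 edgeR found 9 members, Hk1, Pfkm, Aldoa, Eno1, Pkm, Ldhb, Slc16a1, Slc16a3 and Vegfa, or 9 of 36 against 16.2% of all genes. The median log2 fold change was -0.17 over the members and -0.02 over all genes tested. On average 25 of the 36 were lower, as were 7996 of all 15350 genes tested. Both KO libraries were below all Wild type libraries for 13 members, against 17.8% of all genes, and above all of them for 5, against 18.2%. Summed erythroid markers stood at 691 to 2361 CPM in Wild type and 4964 to 6848 in KO, with 9 of 14 called higher and none of the 14 at 0 throughout, while T cell markers summed to less in KO, as given above. The part of cell composition in any of these values was not tested, and in bulk libraries fewer cells of a type and less RNA per cell cannot be told apart. Myeloid markers summed to 38.4 to 391 CPM in Wild type and 86.7 to 142 in KO, B and plasma cell markers to 486 to 1151 and 1027 to 1402, NK cell markers to 82.0 to 106 and 90.6 to 133, and platelet markers to 6.95 to 15.0 and 10.6 to 14.0. The median log2 fold change was -1.08 over 7 B and plasma cell markers and -0.41 over 5 NK cell markers, although both sums reached higher in KO. It was -0.61 over 8 myeloid, 0.22 over 4 platelet and -0.43 over 14 T cell markers. No marker of these lists was called.

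**Figure D4:**
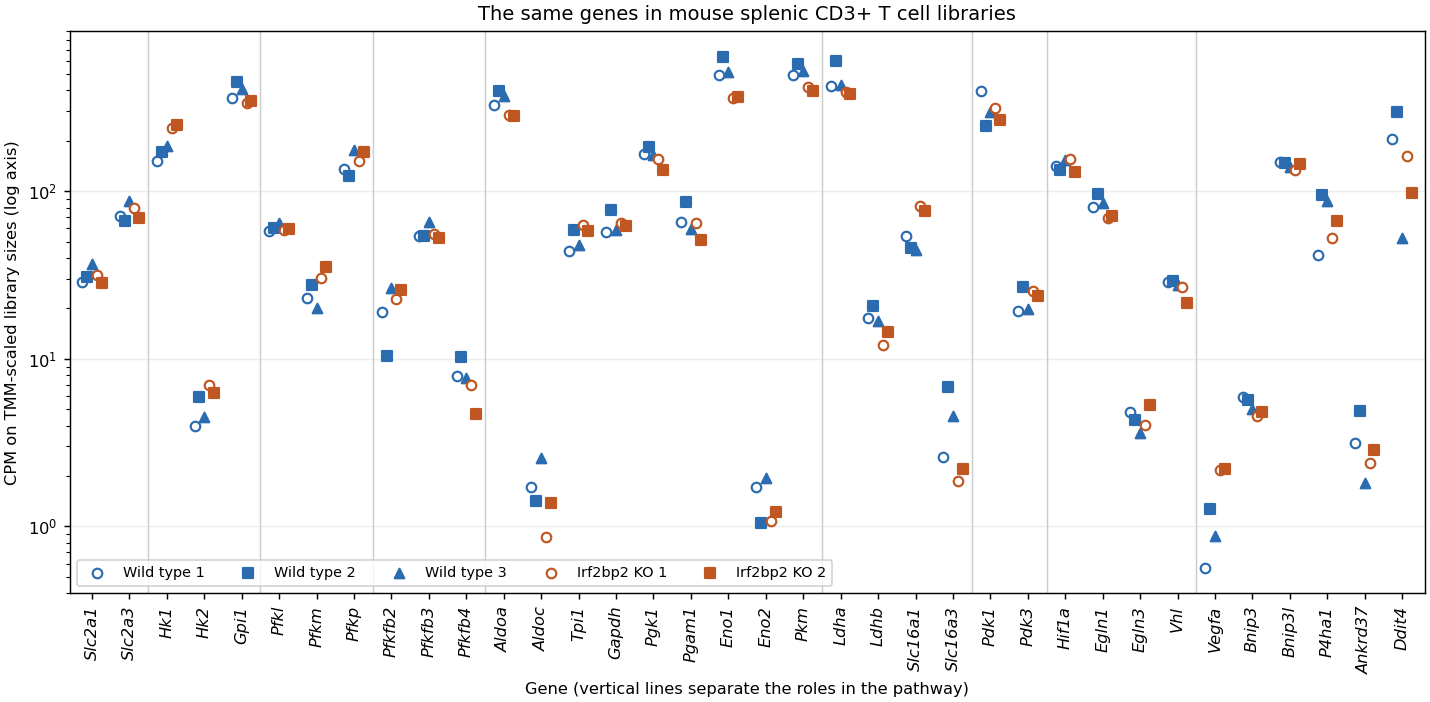
CPM of each of the 36 genes (x axis, ordered by role) in the 5 mouse T cell libraries, on a logarithmic y axis, with blue symbols for Wild type and orange for Irf2bp2 KO. The KO symbols lie below all Wild type symbols for 13 genes, among them Eno1, Aldoa and Pkm, and above all of them for 5, among them Hk1 and Slc16a1.

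The genes of the later steps of glycolysis were mostly lower on average in KO, without a call. Eno1 stood at 496, 635 and 514 CPM in Wild type and 360 and 366 in KO, with a log2 fold change of -0.59 ± 0.16 (adjusted p = 0.12, range 0.0095 to 0.14 over 9 alternatives that kept all libraries). Aldoa had 327, 396 and 368 against 285 and 280 (-0.37, adjusted p = 0.26), and Pkm 493, 576 and 521 against 420 and 398 (-0.37, adjusted p = 0.24). For these 3 genes the groups did not overlap. Pgk1 had 167, 185 and 166 CPM against 155 and 135, and Ldha 422, 602 and 430 against 390 and 378. Ldhb, which was lower in the J.gamma1 knockdown, had 17.6, 20.7 and 16.8 against 12.1 and 14.5 (-0.47, adjusted p = 0.30). In these 3 too both KO libraries were below. Pgam1 (59.8 to 86.5 against 51.1 and 64.4 CPM) overlapped between groups, as did Tpi1 (43.95 to 58.9 against 58.0 and 62.6). Aldoc and Eno2 were scarce, at up to 2.57 and 1.94 CPM.

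Gapdh was listed at 57.5, 77.7 and 58.5 CPM in Wild type and 64.3 and 61.8 in KO, low beside its neighbors in the pathway. Annotated pseudogene rows that resemble it, 169 in number, held 97040 counts against 10533 in the Gapdh row, or 891% to 963% per library. With those rows added, Gapdh stood at 592, 813 and 622 CPM in Wild type and 637 and 618 in KO, and the groups still overlapped. The Gapdh row alone is therefore an uncertain measure of its level, and the 17-gene share given above leaves these rows out. Iffo1 also overlaps Gapdh on the opposite strand, with 70.0% as many counts.

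Hk1 and Slc16a1 were higher on average in KO, without a call. Hk1, the main hexokinase of these cells, stood at 151, 172 and 186 CPM in Wild type and 240 and 247 in KO, with the groups apart and a log2 fold change of 0.52 ± 0.13 (adjusted p = 0.11, range 0.013 to 0.12 over the same alternatives). Slc16a1 had 54.4, 45.9 and 44.6 CPM against 82.0 and 75.9, a log2 fold change of 0.71 ± 0.14 with an adjusted p of 0.051 and a range of 6.4e-04 to 0.067 over these alternatives. The lowest of the 3 ranges came from DESeq2, and the log2 fold changes of the 3 genes stayed under the threshold of 1 in size. Both genes are also expressed in erythroid cells, whose markers were higher in KO as given above, and the part of this in their levels was not tested. Slc16a3 went the opposite way to Slc16a1, at 2.59, 6.75 and 4.57 against 1.85 and 2.197 CPM (-1.19 ± 0.46, adjusted p = 0.27). Hk2 was low, at 3.995 to 5.95 against 6.97 and 6.25 CPM, and Gpi1 had 362, 447 and 406 against 339 and 346. Pfkm had 20.2 to 27.7 CPM in Wild type and 30.6 and 35.2 in KO (0.47, adjusted p = 0.27) and shares its locus with Senp1 on the opposite strand, which held 301% as many counts. Pfkl (58.2 to 64.5 against 58.7 and 59.5 CPM) and Pfkp (124 to 176 against 152 and 171) overlapped.

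The transporters Slc2a1 (28.8, 30.8 and 36.7 CPM in Wild type, 31.8 and 28.3 in KO) and Slc2a3 (71.5, 66.5 and 87.1 against 79.3 and 69.2) overlapped between groups. Of the regulators, Pfkfb2 had 19.1, 10.4 and 26.5 CPM against 22.9 and 25.9, Pfkfb3 53.8 to 65.4 against 55.6 and 52.8, and Pfkfb4 7.70 to 10.2 against 6.997 and 4.70. Pdk1 was abundant and variable, at 394, 245 and 299 CPM against 315 and 267, and Pdk3 had 19.3 to 26.8 against 25.4 and 23.8.

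Hif1a, which was higher after knockdown in J.gamma1, had 142, 134 and 154 CPM in Wild type and 156 and 131 in KO, a log2 fold change of 0.00 ± 0.14. Egln1 had 80.4, 96.9 and 85.0 against 69.6 and 71.6 (-0.31, adjusted p = 0.32), Vhl 27.7 to 29.0 against 26.7 and 21.5, and Egln3 3.63 to 4.83 against 4.05 and 5.27. The human and mouse changes were not tested against each other. Ddit4 varied widely, at 207, 298 and 52.4 CPM in Wild type and 162 and 98.1 in KO, so that its spread within Wild type took in both KO libraries. Bnip3l had 140 to 149 CPM against 134 and 145, and P4ha1 41.7 to 95.4 against 52.9 and 66.7. Bnip3 was 5.01 to 5.91 against 4.57 and 4.84, and Ankrd37 1.81 to 4.90 against 2.40 and 2.85. Vegfa was near the lower limit, at 0.567, 1.27 and 0.876 against 2.17 and 2.197 CPM (1.26 ± 0.45, adjusted p = 0.24).

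Of the 110 further genes, 89 were tested in the mouse, of which 0 were lower and 6 higher, against 0.111% and 2.47% of all genes tested. Pklr, the pyruvate kinase of liver and red cells, had 4.35, 7.41 and 4.004 CPM in Wild type and 32.3 and 40.3 in KO (log2 fold change 2.78, adjusted p = 0.010). Tfrc, the transferrin receptor, had 75.6, 72.0 and 83.7 against 277 and 323 (1.96, adjusted p = 0.0045), and it also stands on the erythroid marker list. Slc2a4, the insulin-responsive glucose transporter, was at 0.270, 0.415 and 0.188 CPM against 3.60 and 4.25 (3.69). Pck2, a mitochondrial carboxykinase, had 24.0 to 30.6 against 60.2 and 62.6 (1.15), Plod2, a lysyl hydroxylase, 0.939 to 1.51 against 4.07 and 5.58 (1.94), and Bhlhe40 7.69 to 13.5 against 26.6 and 53.6 (1.92). These 6 were picked as called higher in KO, where the erythroid markers also summed to more, so the rise in common follows from the choice. The part of erythroid cells in the levels of the 6 was not tested. No call was made among 11 genes of pyruvate entry, 8 pentose phosphate genes, 13 subunits and regulators of the hypoxia-inducible factor and 7 glucose-sensing genes.

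Isozyme shares per length were set side by side for 9 families in the line and the mouse cells, with species, cell type and annotation differing at once. HK2 made up 48.5% to 57.7% of the hexokinase pair in J.gamma1 and 3.35% to 4.70% in mouse T cells. LDHB made up 46.4% to 70.4% of its pair in J.gamma1 and 6.13% to 8.06% in the mouse. SLC2A1 made up 85.5% to 88.7% of the transporter pair against 45.3% to 48.9%, and PFKP 69.7% to 72.1% of the phosphofructokinase subunits against 34.8% to 45.5%. The ranges of these 4 did not overlap between the tables, nor did those of ALDOA (88.5% to 97.8% against 99.4% to 99.7%) and ENO1 (92.4% to 93.3% against 99.6% to 99.8%). Those of SLC16A1 (85.0% to 98.2% against 89.1% to 98.2%), PDK1 (63.0% to 83.0% against 75.0% to 87.05%) and PFKFB3 (63.5% to 84.5% against 60.6% to 66.8%) overlapped.

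**Figure D5:**
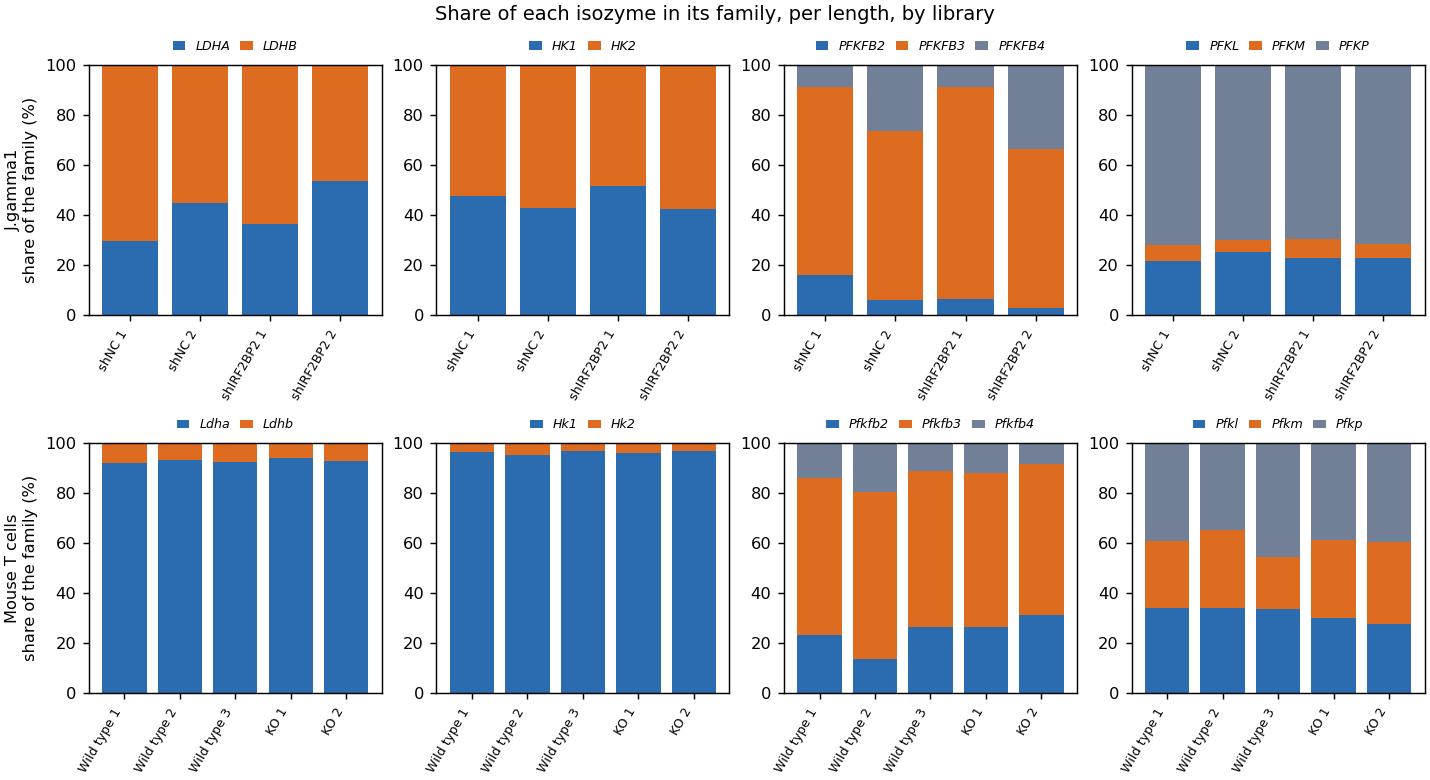
Share of each isozyme in the sum of its family (y axis, percent, per kilobase of exon), stacked by library for 4 families, in J.gamma1 (top) and mouse T cells (bottom). LDHB and HK2 take up large parts of their pairs in J.gamma1 and under 9% in every mouse library, and the PFKFB4 share differs between the J.gamma1 libraries numbered 1 and 2.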

How the data were processed

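RNA was sequenced from 4 J.gamma1 and 5 mouse T cell libraries. Per the labels and the methods of the study, the authors aligned paired reads with HISAT2 2.2.0 (hg38 for the human and mm10 for the mouse libraries) and ran StringTie, and they deposited whole-number counts per gene, without normalization or pooling. How coverage became counts, and whether strand was used, is not given in the sources used here. An assumed read length can scale all counts.

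Rows with an identifier in GENCODE (release 44 for human) were kept, holding 98.0% (97.9% to 98.1%) of human and 99.8% of mouse counts. Each table was fitted alone over all genes with edgeR 4.0.16 in R 4.3.3 (filterByExpr, TMM, quasi-likelihood test, Benjamini-Hochberg adjustment), with 2 and 3 residual degrees of freedom. Calls needed an adjusted p below 0.05 with a log2 change of 0.5 (human) or 1 (mouse) or more either way. The scripts were tested on simulated data in which 200 genes changed by 1.5 on the log2 scale. Of these edgeR found 192 among 15819 genes in the J.gamma1 design (12 false calls) and 180 among 15350 in the mouse design (18 false calls). DESeq2 found 196 (22 false calls) and 192 (65 false calls) in the same designs. The changed genes were drawn from the better expressed ones, and hits were counted on the adjusted p without the fold threshold. Libraries were simulated without a difference shared by replicate number. These counts therefore do not give the power for smaller changes or for genes that separate by number. Levels are CPM on TMM-scaled library sizes, or CPM per kilobase of annotated exon between genes. Libraries of a group differed beyond sampling noise (chi-square per gene at least 20.0), and each counted as 1 replicate.

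Pseudogenes were matched to members by sequence (at least 90% identity over at least 200 bases and 50% of the transcript). Promoters and 3′ UTR words came from hg38 and GENCODE, and mouse promoters from RefSeq. Alternatives were DESeq2 1.42.0, other scalings and filters, fold thresholds, all rows, counts divided by 2, the replicate number as a block and each library left out. The sum with pseudogene rows was added after the data were seen. The members and lists were chosen with earlier results of these data known, and all 36 members are named, with the list genes that were called and TXNIP. DESeq2 was also used by the authors, and their comparison values were not used. The J.gamma1 sum of 1 marker list is not reported here.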

Additional observations from a re-analysis of the deposited data

How the results depend on the processing

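Each count of called members is 0 in the mouse in every setting tried (other scalings, filters, fold thresholds, all rows, halved counts, DESeq2, the block, pseudogene rows added and each library left out). Other fold thresholds were tried with edgeR only. With DESeq2 the adjusted p was 0.0095 for Eno1, 0.013 for Hk1 and 6.4e-04 for Slc16a1, so that its count of 0 rests on the threshold of 1. In J.gamma1 the count of 2 lower members was 1 when genes needed only 1 count in some library and 1 at a log2 threshold of 1, and the count of 1 higher member was 0 at that threshold. PFKFB2 missed the threshold when genes needed only 1 count (-1.05, adjusted p = 0.058, range 3.7e-04 to 0.058 over 9 alternatives). Leaving out each library in turn gave 1 to 3 lower and 1 to 7 higher, with a lone library assumed to vary like the others. The replicate numbers are shared by the groups, but 2 numbers do not establish a pairing. Deviations of same-numbered libraries correlated at 0.32 over 10919 genes in J.gamma1, and at 0.26 and -0.10 over 10325 genes in the mouse. With the replicate number as a block, 3 members were higher in J.gamma1 (SLC16A3, 1.31, adjusted p = 3.7e-04, range 3.7e-04 to 0.45 over 9 alternatives; DDIT4, 0.55, adjusted p = 0.0045, range 0.0045 to 0.78; and HIF1A), EGLN3 was also lower (-1.93, adjusted p = 0.014, range 0.014 to 0.51 over 8), and no mouse member was called. The cause was not tested.

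Signs changed for small log2 fold changes. HK1 was -0.004 with halved counts, -0.0018 with at least 10 counts in every library, -0.019 with at least 1 count in one, -0.0001 with the block and -0.0415 with upper-quartile scaling. With the block VEGFA was -0.12, Slc2a1 0.0091, Slc2a3 0.10 and Pfkfb3 0.004. With at least 10 counts in every library Slc2a3 was 0.032, Pfkl 0.0026 and Gapdh 0.011. With single libraries left out, 28 human members changed sign in at least one fit, with these ranges: SLC2A1 -0.41 to 0.92, SLC2A3 -0.35 to 1.32, HK1 -0.41 to 0.35, HK2 -0.81 to 0.47, GPI -0.38 to 0.18, PFKL -0.50 to 0.036, PFKP -0.47 to 0.048, PFKFB3 -0.26 to 0.70, PFKFB4 -1.70 to 2.38, ALDOA -0.40 to 0.30, ALDOC -1.82 to 2.29, TPI1 -0.54 to 0.36, GAPDH -0.39 to 0.034, PGK1 -0.54 to 0.42, PGAM1 -0.36 to 0.17, ENO1 -0.85 to 0.18, ENO2 -0.78 to 0.075, PKM -0.21 to 0.39, LDHA -0.66 to 0.43, SLC16A1 -0.12 to 0.25, PDK1 -0.99 to 0.94, EGLN1 -0.59 to 0.67, VEGFA -1.66 to 1.19, BNIP3 -1.54 to 1.73, BNIP3L -0.87 to 0.37, P4HA1 -1.04 to 1.05, ANKRD37 -1.83 to 0.35, DDIT4 -0.47 to 1.56. In the mouse 8 did: Slc2a1 -0.20 to 0.0047, Slc2a3 -0.14 to 0.10, Gapdh -0.11 to 0.14, Pdk1 -0.25 to 0.11, Hif1a -0.15 to 0.10, Egln3 -0.10 to 0.28, Ankrd37 -0.63 to 0.0702, Ddit4 -0.96 to 0.0077.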
